A study of Mus musculus with 22 samples.

Results

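Each Igh sequence of the kidney B cell libraries was placed in a class by the constant region gene of its reads, Ighd (IGHD, for IgD) or Ighm (IGHM, for IgM). The Ighd class held the 1374 unique V-D-J regions with Ighd reads, 8.35% of the 16448 in all 22 libraries, and the Ighm-only class the 14658 (89.1%) with Ighm reads and no Ighd reads. The remaining 416 had reads of other isotypes alone. Each identifier carries 9 whole numbers, one read count for every isotype, while the names of the isotypes are cut off after Igha. The second number was taken as Ighd and the ninth as Ighm, from alphabetical order, so both class names rest on that order. On GRCm38, Ighd lies on chromosome 12 from 113406604 to 113416324 and Ighm from 113418558 to 113422730, both on the minus strand.

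The libraries came from WT C57BL/6 female mice aged 8 to 10 weeks whose bladders had been inoculated with PBS (6 mice) or with UPEC, uropathogenic Escherichia coli (5 mice), and whose kidneys were taken at day 56. B cells were sorted per mouse into an extravascular fraction, out of reach of an antibody given intravenously before death (CD45IV-), and an intravascular fraction (CD45IV+). Organs were not perfused. Only Igh sequences were measured, so no B cell marker could be read to check the sorts. The libraries held 235 to 1993 unique V-D-J regions from 936 to 18956 reads. Every deposited sequence had at least 2 reads.

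IgM and IgD are made from one rearranged V-D-J exon, joined to the constant exons of Ighm or, by alternative splicing of the same long transcript, to those of Ighd. Mature follicular B cells that have not met antigen carry both on their surface. B-1 cells carry much IgM and little IgD, often use Ighv11 or Ighv12 segments, and, where they arose before birth, have few N nucleotides, the untemplated bases that terminal transferase adds at the V-D and D-J junctions. After class switching the Ighm and Ighd genes are deleted from the rearranged chromosome. None of the 1374 Ighd sequences had reads of a switched isotype. Ighm reads were found beside Ighd reads for 180 of them (13.1%), always on separate lines with an identical V-D-J region, and in 91 of these 180 the Ighm reads outnumbered the Ighd reads. The other 1194 had no Ighm reads. A sequence without reads of a gene may still come from a cell that expresses it. The Ighm-only class may therefore hold sequences of cells with Ighd RNA, and how many was not tested.

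The junctions below show the range of sequences behind the 2 classes, with N nucleotides in capitals, from the conserved cysteine codon of the V segment to the conserved tryptophan codon of the J segment. The first is the largest extravascular Ighd clonotype, of PBS mouse 5, with 22 Ighd sequences and 1 Ighm-only sequence. The second is the largest intravascular Ighd clonotype, also of PBS mouse 5, with 6 Ighd sequences and no D segment assigned. The next 2 are the largest Ighm-only clonotypes of the extravascular and intravascular libraries, with 387 sequences in PBS mouse 1 and 214 in PBS mouse 6. Then comes the one extravascular clonotype whose Ighd class was found in more than 1 mouse, and last the Ighv12-3 clonotype of the Ighm-only class that extravascular libraries of most mice held, 3 of them, with 319 sequences.
Ighv3-1, Ighj1, Ighd class: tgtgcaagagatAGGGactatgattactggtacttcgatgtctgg
Ighv3-8, Ighj4, Ighd class: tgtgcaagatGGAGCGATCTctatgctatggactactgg
Ighv3-3, Ighj2, Ighm-only class: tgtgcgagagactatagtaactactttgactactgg
Ighv3-1, Ighj3, Ighm-only class: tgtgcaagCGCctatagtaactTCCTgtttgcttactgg
Ighv11-2, Ighj1, both classes: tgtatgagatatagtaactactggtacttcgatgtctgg
Ighv12-3, Ighj1, Ighm-only class: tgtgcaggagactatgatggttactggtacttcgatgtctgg
The Ighv11-2, Ighv12-3 and Ighv3-3 junctions hold no N nucleotide. The Ighv11-2 clonotype was in 21 of the 22 libraries, from all 11 mice, with 191 Ighm-only sequences and 2 Ighd sequences, those from the extravascular libraries of 2 mice.

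The Ighd share of unique V-D-J regions was first compared between compartments. In the extravascular libraries of PBS mice it was 0.351%, 3.72%, 2.37%, 6.71%, 6.90% and 6.79% in mice 1 to 6, and in the intravascular libraries of the same mice 17.4%, 24.4%, 14.6%, 21.0%, 17.3% and 10.2%. The ranges did not overlap. In UPEC mice 1 to 5 the extravascular values were 31.5%, 4.73%, 5.12%, 13.0% and 7.46%, and the intravascular values 17.1%, 17.0%, 11.2%, 7.83% and 16.2%. Here mice 1 and 4 had the higher share outside the vessels. In 95% Wilson intervals, which cover counting error only, the extremes ran from 0.170% to 0.723% (PBS mouse 1, extravascular) and from 25.9% to 37.7% (UPEC mouse 1, extravascular, the smallest library). In these bulk libraries fewer Ighd cells and less Ighd RNA per cell cannot be told apart.

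**Figure D1:**
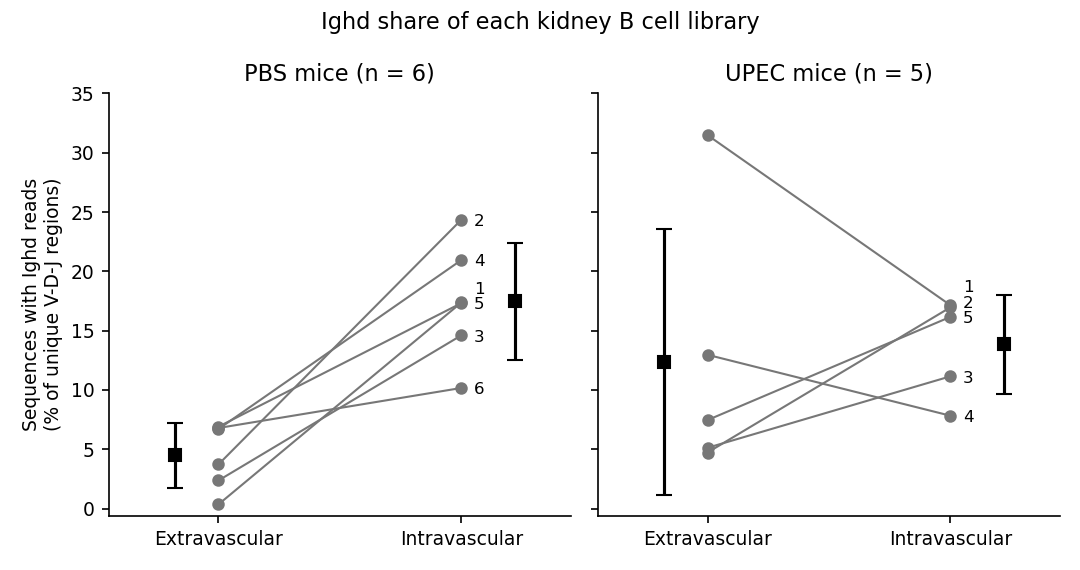
Share of unique V-D-J regions with Ighd reads (y axis, percent) in the extravascular and intravascular library of each mouse, joined by a line and numbered by mouse, for PBS and UPEC mice. Squares with bars are the mean and SD. All 6 PBS lines rise to the intravascular library, and 2 of the 5 UPEC lines fall.

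The difference, extravascular minus intravascular, averaged -13.0 percentage points in PBS mice (SD 5.93, lower in 6 of 6, exact two-sided signed-rank test, p = 0.03125, the smallest that 6 mice allow). Weighted by reads, it was -6.82 points in PBS mice, lower in 5 of 6, and did not pass (exact p = 0.0625). It averaged -1.50 points in UPEC mice (SD 10.99, lower in 3 of 5, p = 0.8125 by the exact test). Over all 11 mice it was -7.77 points (lower in 9 of 11, exact p = 0.0537), -9.98 points without UPEC mouse 1 (exact p = 0.00586) and -9.06 points without UPEC mouse 4 (exact p = 0.0488). Whether UPEC changed the difference was tested directly. UPEC mice stood 11.5 points above PBS mice, which did not pass the threshold of 0.05 (exact two-sided Mann-Whitney test, p = 0.0823). The same comparison gave 15.3 points and an exact p of 0.0173 with each clonotype counted once, and an exact p of 0.0317 without PBS mouse 6 and of 0.0381 without UPEC mouse 2. Without UPEC mouse 1 it gave 7.53 points (exact p = 0.171). Within a compartment, UPEC and PBS libraries differed by 7.88 points outside (exact p = 0.126) and by -3.61 points inside the vessels (exact p = 0.177). The extravascular value was 3.095 points without UPEC mouse 1 (exact p = 0.257), and the intravascular value -2.11 points without UPEC mouse 4 (exact p = 0.352) and -2.24 points without PBS mouse 2 (exact p = 0.310). The intravascular difference was -5.32 points (exact p = 0.0173) with each clonotype counted once.

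The number of Ighd sequences moved less than the share. Extravascular libraries held 7 to 94 (median 54) and intravascular libraries 56 to 98 (median 63), while Ighm-only sequences numbered 156 to 1985 (median 779) and 266 to 825 (median 344). The Ighd share fell as the number of unique V-D-J regions rose, with Spearman rho -0.75 over the 11 extravascular and -0.56 over the 11 intravascular libraries. The library size is the denominator of the share. The part of library size in the compartment difference was not tested.

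V segments were compared next, and Ighv5-17 had the largest mean gap in share toward the Ighd class in both compartments. Outside the vessels it made up 6.12% to 27.5% of Ighd sequences (median 12.6%) and 0.162% to 2.56% of Ighm-only sequences, with no overlap between the classes, and its mean share was 14.6% against 1.08% (higher in 10 of 10 libraries, signed-rank test with Benjamini-Hochberg adjustment, exact adjusted p = 0.00938). Inside the vessels it made up 3.57% to 23.9% against 0% to 2.65%, again without overlap, with means of 12.3% and 1.01% (11 of 11, exact adjusted p = 0.00371). Seen from the segment, 187 of the 317 Ighv5-17 sequences of the 2 classes (59.0%) were of the Ighd class, and 60.9% of the 307 with a V-D-J region of at least 300 nt. Only 12 of the 187 Ighv5-17 sequences of the Ighd class had Ighm reads as well. Ighv5-17 lies on chromosome 12 from 113859149 to 113859670, on the side of the V cluster near the D segments. The Ighv5-17 sequences with most Ighd reads are printed as examples, the first extravascular (PBS mouse 2, 9 Ighd reads) and the second intravascular (UPEC mouse 4, 7 Ighd reads). Neither clonotype was found in another library. Neither has an N nucleotide, while the Ighv5-17 sequences of the Ighd class had a mean of 5.39.
Ighv5-17, Ighj1: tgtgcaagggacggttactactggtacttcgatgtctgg
Ighv5-17, Ighj2: tgtgcaaggagctcgtactttgactactgg

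**Figure D2:**
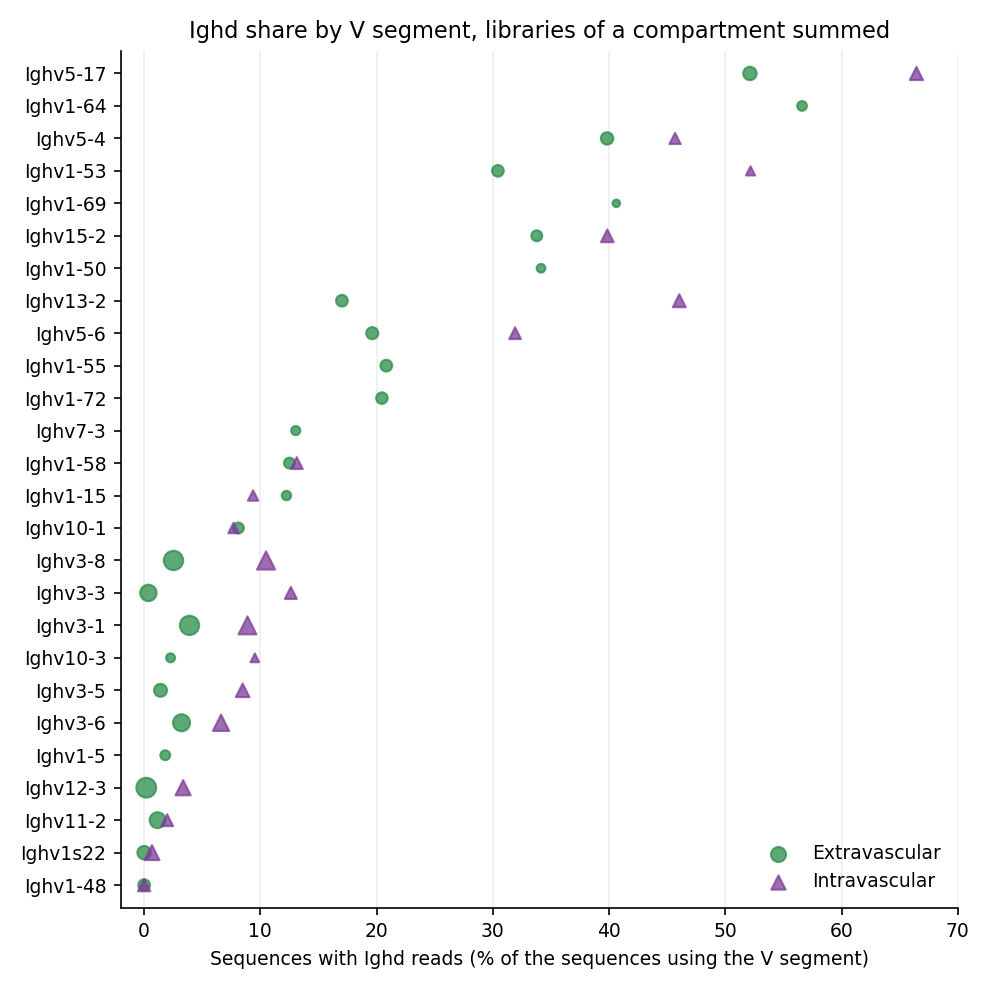
Sequences with Ighd reads as a percentage of all sequences using a V segment (x axis), libraries of a compartment summed, for the V segments with at least 30 sequences in that compartment. Circles are extravascular, triangles intravascular, and larger symbols stand for more sequences. Ighv5-17 reaches 52.1% and 66.4%, extravascular Ighv1-64 reaches 56.6%, and Ighv12-3 stays at 0.183% and 3.35%.

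The extravascular test covered 10 libraries, because that of PBS mouse 1 had only 7 Ighd sequences, under the minimum of 10. There, 9 of 24 V segments tested (37.5%) differed between the classes, 4 of them (16.7%) higher in the Ighd class and 5 (20.8%) lower. Beside Ighv5-17, the higher ones were Ighv5-4 (8.01% of Ighd against 1.37% of Ighm-only sequences), Ighv1-64 (5.31% against 0.410%) and Ighv15-2 (4.07% against 0.581%). Lower in the Ighd class were Ighv12-3, Ighv3-8 (8.92% against 23.2%), Ighv11-2, Ighv1s22 and Ighv1-48. Inside the vessels 12 of 19 V segments (63.2%) differed, 6 (31.6%) in each direction. The 6 higher ones were Ighv5-17, Ighv13-2 (7.88% against 1.81%), Ighv15-2 (7.10% against 2.21%), Ighv5-4 (4.74% against 0.890%), Ighv5-6 (4.04% against 1.40%) and Ighv1-53 (3.00% against 0.461%). Among the 6 lower ones, Ighv3-1 fell from 22.6% of Ighm-only to 12.5% of Ighd sequences and Ighv3-6 from 11.2% to 4.69%. Limma on log2 shares called 14 extravascular and 15 intravascular segments, which included all of these.

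Read length moved with 2 of the lower segments. All 465 Ighv1s22 and all 206 Ighv1-48 sequences had a V-D-J region under 300 nt, with a median of 127 nt, and GENCODE vM21 lists Ighv1-48 as a pseudogene. Over the whole classes, 2.84% of Ighd and 12.6% of Ighm-only sequences were under 300 nt. Restricted to V-D-J regions of at least 300 nt, the test called 7 extravascular segments, all of them among the 9, and 12 intravascular ones, 10 of them among the 12.

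**Figure D3:**
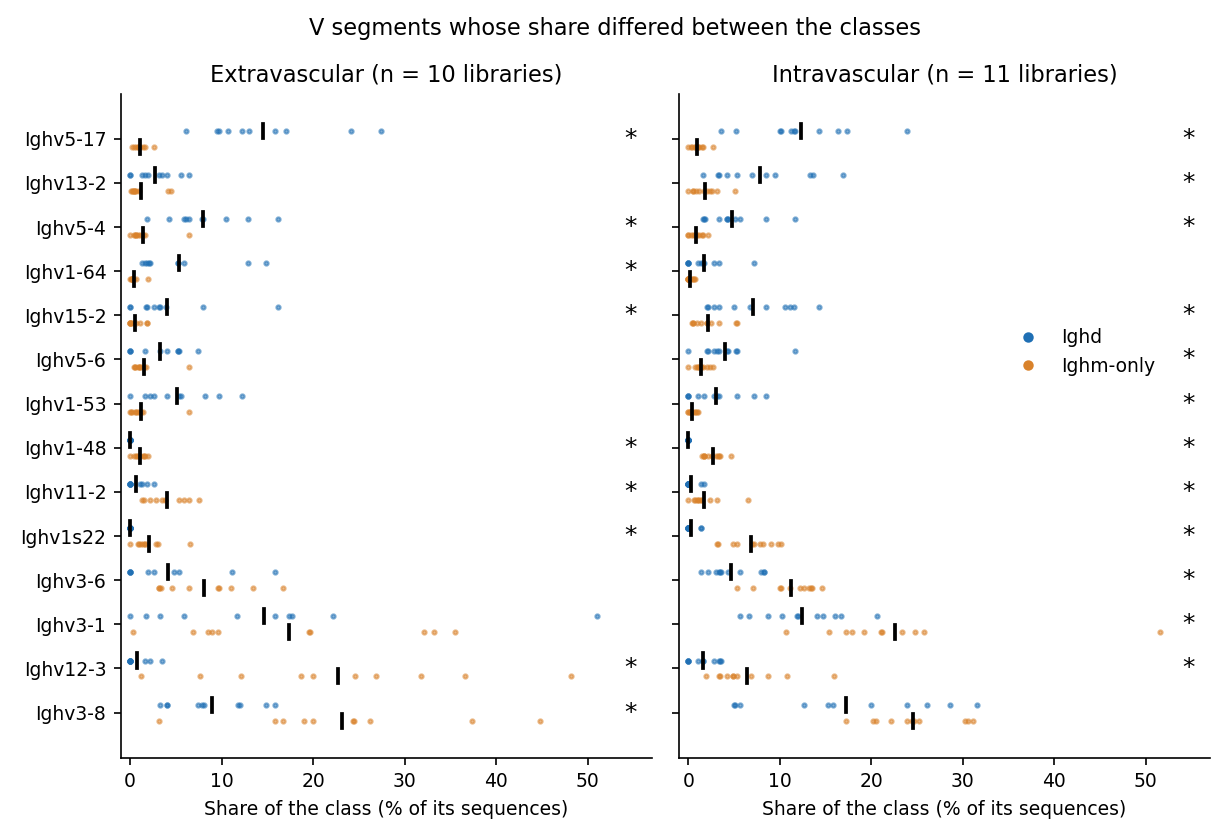
Share of each class (x axis, percent of its sequences) taken by the V segments called in at least 1 compartment. Each point is a library, blue for the Ighd class and orange for Ighm-only, vertical bars are means over libraries, and asterisks mark an adjusted p below 0.05 in that compartment. Blue and orange points of Ighv5-17 do not overlap in either panel.

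Grouped by V family, Ighv5 took 31.7% of extravascular Ighd sequences against 5.42% of Ighm-only sequences (higher in 10 of 10 libraries, exact signed-rank adjusted p = 0.00586), and 25.4% against 3.89% in the intravascular libraries (11 of 11, exact adjusted p = 0.00293). Ighv5 values of the extravascular Ighd class lay between 12.2% and 43.1%, and those of the Ighm-only class between 1.32% and 23.7%, the highest from UPEC mouse 1, so that the extravascular ranges overlapped. The intravascular ranges, from 14.0% upward and from 1.75% to 8.41%, did not. Ighv3, the most used family, was lower in the Ighd class, 28.2% against 52.3% outside (lower in 9 of 10, exact adjusted p = 0.0141) and 38.4% against 64.7% inside (11 of 11, exact adjusted p = 0.00293). Ighv1 was higher in the extravascular Ighd class, 29.6% against 11.3% (10 of 10, exact adjusted p = 0.00586). The intravascular values of Ighv1, 17.2% and 16.4%, did not pass the test (exact adjusted p = 0.980). Among V-D-J regions of at least 300 nt the Ighd class was 10.7 points above (exact p = 0.000977). That cut removes every Ighv1s22 and Ighv1-48 sequence, 294 and 113 of the 709 intravascular Ighv1 sequences of the Ighm-only class. Counted once per clonotype, the Ighv1 shares were 33.8% and 25.2% outside (exact p = 0.0840) and 17.8% and 23.3% inside (exact p = 0.102). Ighv13 and Ighv15 were higher in the Ighd class of the intravascular libraries, and Ighv15 in that of the extravascular libraries. Ighv2 passed the test outside the vessels (lower in 7 of 10 libraries, exact adjusted p = 0.0268). It was rare, with 15 Ighm-only and 0 Ighd sequences in the 10 extravascular libraries and 6 and 3 in the intravascular ones, too few to read a direction from. Ighv4, Ighv7, Ighv10 and Ighv14 did not pass the test in either compartment. For intravascular Ighv10, 1.18% against 2.11% (exact adjusted p = 0.142), the gap was -2.25 points with each clonotype counted once (exact p = 0.00195) and -1.44 points among V-D-J regions of at least 300 nt (exact p = 0.00488).

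Ighv12-3 and Ighv11-2, the segments tied to B-1a cells, were nearly absent from the Ighd class. Outside the vessels Ighv12-3 made up 12.2%, 36.6%, 48.2%, 7.66% and 26.9% of the Ighm-only sequences of UPEC mice 1 to 5 and 18.6%, 24.6%, 31.8%, 20.0% and 1.20% of those of PBS mice 2 to 6. In 7 of the 10 libraries no Ighd sequence used it, and in the others 1.61% to 3.51% did. The mean shares were 0.725% and 22.8% (lower in 10 of 10, exact adjusted p = 0.00304). Inside the vessels they were 1.61% and 6.39% (lower in 10 of 11, exact adjusted p = 0.00304). Of all 3059 Ighv12-3 sequences of the 2 classes, 16 were of the Ighd class (0.523%), and of 535 Ighv11-2 sequences, 7 (1.31%). Ighv11-2 made up 0.688% of Ighd and 4.04% of Ighm-only sequences outside and 0.282% and 1.76% inside the vessels (exact adjusted p = 0.00304 in each). Counted once per clonotype, the extravascular gap of Ighv12-3 was -12.1 points in place of -22.1 (exact p = 0.00195).

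Across the 22 libraries, which share mice in pairs, the V segments whose share moved most like the Ighd share were Ighv13-2 (Spearman rho 0.74), Ighv5-2 (0.66), Ighv5-17 (0.65), Ighv5-6 (0.64) and Ighv1-15 (0.63). With the Ighd sequences themselves left out of the V shares, the values were 0.67, 0.21, 0.33, 0.60 and 0.64. The lowest correlations were those of Ighv12-3 (-0.63) and Ighv11-2 (-0.41), followed by Ighv1-53 (-0.09), Ighv1-5 (-0.03) and Ighv3-1 (-0.02). With the Ighd sequences left out, these were -0.62, -0.25, -0.04, -0.18 and 0.04, and Ighv1-50 stood at -0.26, below Ighv11-2.

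D and J segments differed less. None of 17 D segments tested in either compartment (0.0%) passed the adjusted signed-rank test, with 1 extravascular and 2 intravascular segments at an unadjusted p under 0.05, and limma called 0 as well. The 2 lowest unadjusted p values were those of D segment Ighd1-1 inside the vessels, with 38.3% of Ighd and 30.0% of Ighm-only sequences (exact adjusted p = 0.0830), and D segment Ighd2-3 outside, with 9.05% and 20.6% (exact adjusted p = 0.465). Grouped by family, the D segments Ighd1 made up 41.3% and 32.9% inside the vessels (higher in 10 of 11, exact adjusted p = 0.0176). Of the 4 J segments none passed the test outside. Inside, Ighj1 was higher in the Ighd class, 25.96% against 21.5%, and Ighj3 lower, 16.8% against 24.3% (9 of 11 libraries and exact adjusted p = 0.0195 for each). The Ighj3 gap of -7.51 points was -3.85 points without PBS mouse 6 (exact p = 0.0195). Ighj2 made up 32.7% and 30.4% and Ighj4 24.5% and 23.8% there. Neither J call was left when sequences were weighted by reads or when only sequences with exactly 2 reads were taken.

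N nucleotides were then compared, as a measure of how the junctions were made. In the extravascular libraries the Ighd class had a mean of 5.68 N nucleotides per junction (SD 0.696, n = 10 libraries, range 4.72 to 7.11) and the Ighm-only class 4.07 (SD 0.881, range 2.89 to 5.97). The Ighd value was higher in 9 of 10 libraries (exact signed-rank test, adjusted p = 0.00746). The exception was UPEC mouse 4, with 4.72 against 5.97. The intravascular values were 5.40 and 5.32 (higher in 6 of 11, exact adjusted p = 0.700). Junctions without any N nucleotide made up 4.62% of extravascular Ighd sequences, 1.75% to 9.68% per library, and 23.1% of Ighm-only sequences, 8.31% to 41.2% (exact adjusted p = 0.00547). The intravascular shares were 5.58% and 8.29% (exact adjusted p = 0.188). Counted once per clonotype, the extravascular gap in N nucleotides was 0.123 (exact p = 0.770), and the gap in junctions without N was -5.64 points (exact p = 0.00586).

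CDR3 length passed the test inside the vessels alone. Outside the vessels the Ighd class had 36.2 nt and the Ighm-only class 35.1 nt (higher in 9 of 10, exact p = 0.0488, adjusted p = 0.0570, from 0.685 to 1.40 nt with 1 library left out). Inside, it had 35.1 nt against 35.9 nt (lower in 10 of 11, exact adjusted p = 0.00304), but the gap was 0.109 nt (exact p = 0.465) among V-D-J regions of at least 300 nt.

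**Figure D4:**
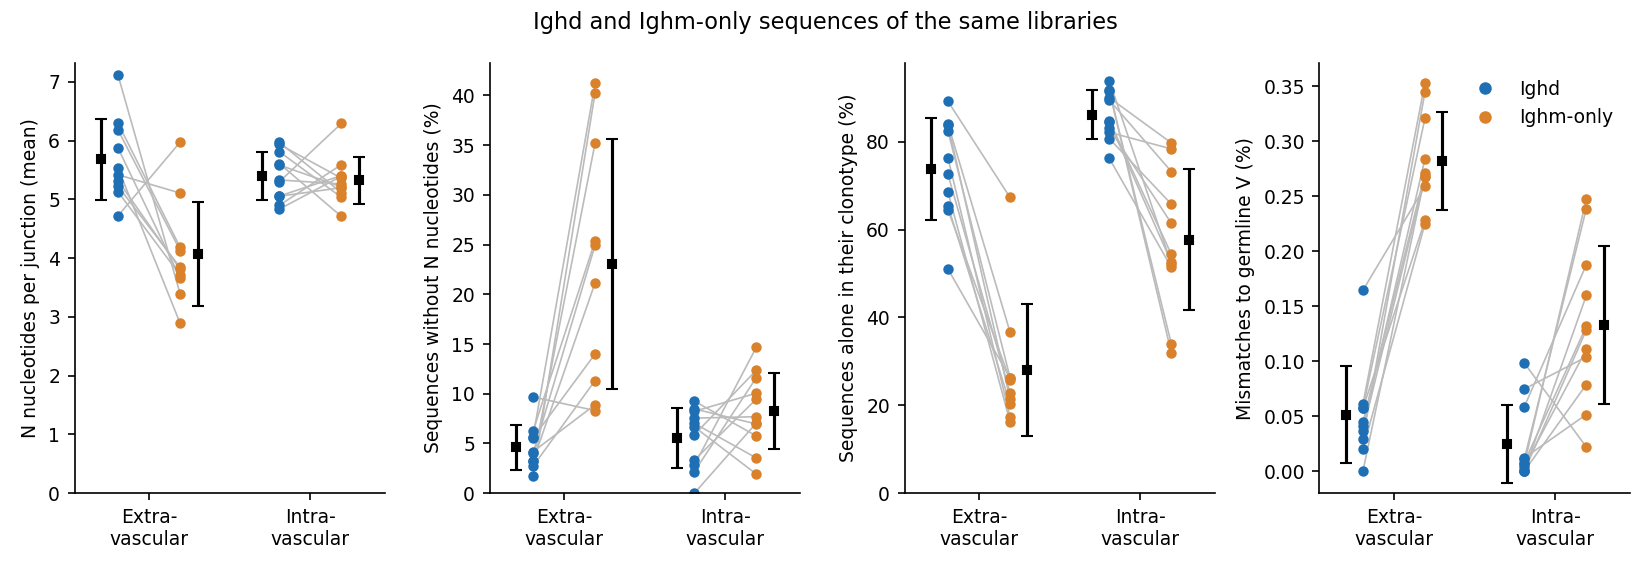
Mean N nucleotides per junction, share of junctions without N nucleotides, share of sequences alone in their clonotype, and mismatches to the germline V segment (y axes) for the Ighd (blue) and Ighm-only (orange) class. Each pair of points joined by a line is a library (10 extravascular, 11 intravascular), and squares with bars are the mean and SD. The classes are furthest apart in the extravascular libraries, where the mismatch values do not overlap.

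Ighd sequences belonged to small clonotypes. A clonotype was the set of sequences of a library with the same junction, V segment and J segment. Sequences alone in their clonotype made up 73.8% of extravascular Ighd sequences, 51.0% to 89.2% per library, and 28.1% of Ighm-only sequences, 16.3% to 67.3%. Inside the vessels they made up 86.2% and 57.7%. The Ighd value was higher in every library tested, 10 of 10 and 11 of 11 (exact adjusted p = 0.00304 for each). With each clonotype counted once, the gaps of 45.7 and 28.5 points were 3.73 points outside (exact p = 0.0645) and 5.82 points inside (exact p = 0.0137). The mean size of the clonotype to which a sequence belonged was 5.597 and 52.6 sequences outside and 1.40 and 12.1 inside the vessels, lower for the Ighd class in all 21 libraries (exact adjusted p = 0.00304 for each). The intravascular gap was -10.7 sequences, and -3.02 without PBS mouse 6 (exact p = 0.00195). The largest clonotypes weigh most in these means, and the Ighm-only class held more sequences in every library. At the size of the smaller class, the Ighd class had a mean of 50.6 unique clonotypes outside and the Ighm-only class 34.4. That was higher in 10 of 10 libraries (exact signed-rank p = 0.00195). Inside, the means were 68.9 and 60.1 (higher in 9 of 11, exact signed-rank p = 0.00977). Counted once per clonotype, the sizes differed by 0.161 outside (exact p = 0.275) and by -0.245 inside (exact p = 0.0322). Clonotypes of at least 20 sequences held 52 of 592 extravascular Ighd sequences (8.78%) and 6411 of 10186 Ighm-only sequences (62.9%). Intravascular clonotypes of that size held 2 of 782 and 546 of 4472 (12.2%).

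**Figure D5:**
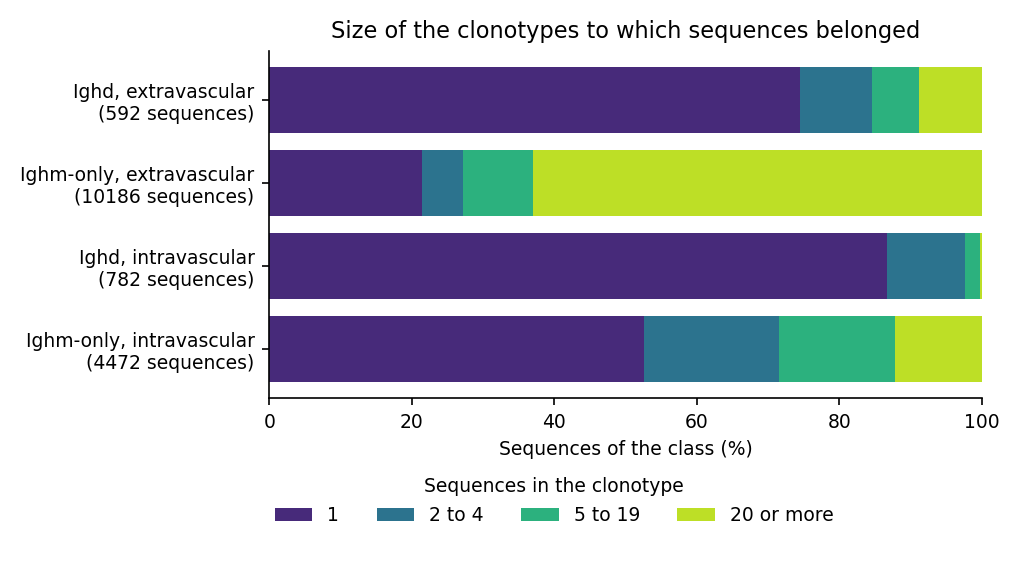
Sequences of each class (x axis, percent, libraries of a compartment summed) by the number of sequences in their clonotype. Single sequences make up 74.5% of the extravascular Ighd class and 21.5% of the extravascular Ighm-only class.

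Large clonotypes with Ighd sequences were mostly Ighm clonotypes with few Ighd members. The Ighv3-1 clonotype of PBS mouse 5, printed above, was the exception. It had 198 Ighd reads against 2 Ighm reads. Next came an Ighv3-8 clonotype of PBS mouse 4 with 8 Ighd and 29 Ighm-only sequences. The largest clonotype to hold an Ighd sequence, with 335 sequences of Ighv3-1 in PBS mouse 3, had 1. Few clonotypes were public. In the extravascular libraries 1 of 512 Ighd clonotypes (0.195%) was found in the Ighd class of more than 1 mouse, and 32 of 2578 Ighm-only clonotypes (1.24%) in the Ighm-only class of more than 1 mouse. In the intravascular libraries 0 of 758 and 13 of 2796 (0.465%) were. A class with more clonotypes per library has more chances of a match, and the classes were not compared at equal numbers. These shares therefore do not show that the classes differ. Of 513 extravascular Ighd clonotypes, counted per mouse, 11 were found in the intravascular library of the own mouse, 9 of them in UPEC mouse 4. An average of 2.5 were found in the intravascular library of another mouse (more in the own mouse in 3 of 11 mice). The other mice had none in either, so that no test could pass. For 2642 Ighm-only clonotypes the numbers were 67 and 24.5 (more in the own mouse in 9 of 11, exact signed-rank p = 0.0244). The classes were not tested against each other in this.

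Mismatches of the V segment to the germline were rarer in the Ighd class. The percentage of mismatched bases was taken per sequence and averaged within a library, then over libraries. Outside the vessels it was 0.0512% for the Ighd class, 0% to 0.165% per library, and 0.282% for the Ighm-only class, 0.225% to 0.353%. The ranges did not overlap (Ighd lower in 10 of 10, exact signed-rank p = 0.00195). In the intravascular libraries the means were 0.0248% and 0.133% (lower in 10 of 11, exact p = 0.00488). No mismatch at all was found in 516 of 583 extravascular Ighd sequences (88.5%) and in 3104 of 9591 Ighm-only sequences (32.4%), and inside the vessels in 97.5% and 68.6%. With each clonotype counted once, the gaps were -0.0541 points outside (exact p = 0.00195) and -0.0242 points inside (exact p = 0.0674). Unique V-D-J regions of one clonotype that differ by a read error or a PCR error count as separate sequences here. Ighm-only sequences had a mean of 7.58 Ighm reads, and Ighd sequences without Ighm reads a mean of 3.56 Ighd reads. Inside the vessels 773 of 782 Ighd and 3801 of 4472 Ighm-only sequences had a mismatch value. The part of these differences in the gap was not tested.

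The 180 sequences with reads of both genes were set beside the others as a description. Alone in their clonotype were 68.9% of them, 83.3% of the 1194 Ighd sequences without Ighm reads, and 31.0% of the Ighm-only class. Their mean N nucleotides were 5.61, 5.50 and 3.99. Ighv3 made up 74.5% of the 106 intravascular sequences with both, 31.4% of the Ighd sequences without Ighm, and 64.2% of the Ighm-only class. Ighv5 made up 7.55%, 29.0% and 4.20% there, and 35.1%, 31.3% and 2.94% in the extravascular libraries.

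With the class fixed, the compartments were compared again, in the 10 mice with enough Ighd sequences in both libraries. Ighd sequences outside the vessels had longer CDR3s than inside, 36.2 against 35.1 nt (9 of 10 mice, exact signed-rank adjusted p = 0.0239), were less often alone in their clonotype, 73.8% against 85.4% (9 of 10, exact adjusted p = 0.0239), and sat in larger clonotypes, 5.597 against 1.43 sequences (9 of 10, exact adjusted p = 0.0239). Their N nucleotides (5.68 and 5.34), junctions without N (4.62% and 5.92%), Ighv12-3 shares (0.725% and 1.77%) and Ighv11-2 shares (0.688% and 0.310%) did not pass the test. For the Ighm-only class, N nucleotides, junctions without N, singletons, Ighv12-3 and Ighv11-2 passed it. Clonotype size counts sequences of every class, so that 1 Ighd sequence of PBS mouse 3 sat in a clonotype of 335. Library size was not held equal between the compartments. Fewer of these comparisons within a class passed with each clonotype counted once or with exactly 2 reads. The Ighm-only means were 4.07 N nucleotides outside and 5.34 inside, 23.1% and 7.95% of junctions without N, and 22.8% and 6.54% for Ighv12-3. The gap between the classes itself differed between compartments for all 7 measures tested, with adjusted p values of 0.0319 to 0.0371. None of the 7 was left when each clonotype was counted once, and none when PBS mouse 2 or 4 or UPEC mouse 2, 3 or 5 was left out. Without PBS mouse 3 it was 3 measures and without PBS mouse 5 it was 4.

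The gaps were last set side by side for PBS and UPEC mice. For N nucleotides outside the vessels the gap was 1.67 in PBS mice (SD 1.25, n = 5) and 1.55 in UPEC mice (SD 1.59, n = 5), and for junctions without N -18.4 points (SD 13.2) and -18.5 points (SD 15.6). The clonotype size gap was -66.8 sequences in PBS mice and -27.2 in UPEC mice (exact Mann-Whitney test, p = 0.0952, adjusted p = 0.981). None of 14 gaps passed the exact Mann-Whitney test after adjustment, and none had an unadjusted p under 0.05. The Ighv5 share of the Ighd class was 30.0% in PBS and 33.3% in UPEC mice outside the vessels and 26.7% and 23.9% inside, values that were not tested.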

How the data were processed

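The authors sorted kidney B cells, reverse transcribed their RNA with barcoded constant region primers, amplified it with a mix of V segment primers, and sequenced read pairs. Quality filtering by QUASR, merging of pairs and a consensus of each barcode came before the constant region was named from short matches to IMGT records. Single-copy reads were dropped, and IMGT/V-QUEST gave the segments and junction parts. The deposited tables hold nucleotide sequences, segment names, junction parts and reads per isotype, with no normalization. Barcode copies of a sequence are not given apart, so the reads are not independent molecules, and all intervals cover counting error only.

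Here the 17178 lines were merged to 16448 unique V-D-J regions per library, with reads added. A class needed at least 10 sequences in a library. Segments needed 30 sequences and presence in 6 libraries. Shares of a class were compared within libraries by exact signed-rank tests and between PBS and UPEC mice by exact Mann-Whitney tests over 462 assignments, with a threshold of 0.05. Replicates are mice, and the extravascular and intravascular library of a mouse carry its number in the labels, which makes the pairs. Benjamini-Hochberg adjustment covered 14 class measures, or the segments or families of a compartment. An ambiguous V name (3.40% of sequences) was taken at its first name. Sequences without a D segment (2.24%) have no N value. Mismatches before the CDR3 were counted against the GENCODE vM21 (GRCm38) entry with that V name, for 78 of 80 names, over at least 100 aligned nt and with at most 15% mismatches, and 7.89% of sequences have no value. The segment test was tested on simulated data. The tools were limma 3.58.1 in R 4.3.3, and scipy 1.17.1, pandas 2.3.3, numpy 2.4.6 and matplotlib 3.10.9 in Python 3.11.15.

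The members, lists and tests were chosen with earlier results of these data known. Named V segments were Ighv11-2, Ighv12-3, the 10 with most sequences, up to 10 of those past the threshold, and the 5 highest and 5 lowest in Spearman correlation with the Ighd share. Named clonotypes were the 3 Ighd clonotypes in most mice and the largest of each class. Since only 1 Ighd clonotype was in more than 1 mouse, size ordered the rest. The Ighv5-17 and Ighv12-3 junctions, the other clonotypes named and the figures per V segment were chosen after their values were seen. V-D-J regions of at least 300 nt were an alternative added after seeing the data.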

Additional observations from a re-analysis of the deposited data

Results flagged for a closer look

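Among 56 groups of 5 or 6 libraries of a treatment and compartment, 6 values stood apart from the rest of their group, where chance gives about 1 in 20. In PBS mouse 6, the intravascular gap between the classes was 31.6 points for Ighj2 (next highest 6.24), -44.1 points for Ighj3 (next lowest -10.4) and -87.8 sequences for clonotype size (next lowest -3.17). That library holds the Ighm-only clonotype of 214 sequences with Ighv3-1 and Ighj3. In UPEC mouse 4, the intravascular gap was -5.14 points for Ighv11-2 (next lowest -1.12) and -19.1 sequences for clonotype size (next lowest -2.08), and the extravascular gap in N nucleotides was -1.25 (next lowest 2.05).

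The gap between the classes, Ighd minus Ighm-only, differed between the compartments by the exact signed-rank test within mice for 7 measures. Extravascular minus intravascular, it differed by 1.61 N nucleotides, 1.89 nt of CDR3 length, -16.4 points of junctions without N nucleotides, 18.6 points of single sequences, -35.5 sequences of clonotype size, -17.3 points of Ighv12-3 and -2.03 points of Ighv11-2. None of the 7 passed with each clonotype counted once, and none without PBS mouse 2 or 4 or UPEC mouse 2, 3 or 5.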

How the results depend on the processing

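Of 630 recomputed values of 31 results, 531 were taken as kept, 288 of the 319 with 1 mouse left out among them. Differences had to keep their direction and their side of the threshold, and counts of calls only a similar size. With exactly 2 reads, for example, 9 extravascular V segments were called, 7 of them among the 9 reported. Some settings could change nothing. A minimum of 2 Ighd reads removed no sequence, and a minimum of 30 sequences per class no tested library. CDR3 length in amino acids was only a rescaling. Differences are given as Ighd minus Ighm-only, extravascular minus intravascular or UPEC minus PBS, and unless another reason is given the cause was not tested. The extravascular library of PBS mouse 1, the deepest, held 7 Ighd sequences and entered no test within libraries.

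With 5 mice alone no signed-rank p can fall below 0.0625, so the values of UPEC mice and the extravascular values of PBS mice show size only, while the 6 intravascular PBS pairs allow 0.03125. PBS mice alone gave extravascular gaps of 1.67 N nucleotides, 1.13 nt of CDR3, -18.4 points without N, 46.9 points of singletons, -66.8 sequences of clonotype size, -18.6 points of Ighv12-3, -3.11 points of Ighv11-2, -0.234 points of mismatches and -2.23 points of Ighj2, and intravascular gaps of -0.862 nt, -2.79 points of Ighv12-3, -1.34 points of Ighv11-2 and -2.21 points of Ighj4. UPEC mice alone gave extravascular gaps of 1.55 N nucleotides, 0.920 nt, -18.5 points without N, 44.5 points of singletons, -27.2 sequences, -25.6 points of Ighv12-3, -3.59 points of Ighv11-2 and -0.228 points of mismatches, and intravascular gaps of -0.830 nt, 23.6 points of singletons, -4.50 sequences, -7.17 points of Ighv12-3, -1.64 points of Ighv11-2, -0.0976 points of mismatches and -1.67 points of Ighj2. Counts of V, D and J segments for each treatment alone were not run, since so few mice cannot pass after adjustment.

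Counted once per clonotype, the gaps were 0.123 N nucleotides, 0.352 nt of CDR3, 3.73 points of singletons (exact p = 0.0645) and 0.161 sequences outside, and -0.251 N nucleotides, -0.0242 points of mismatches and -1.48 points of Ighj4 inside. Of the 14 comparisons between compartments within a class 4 passed in place of 8, and 0 of the 7 gaps. The Ighd share of UPEC mice was then 3.801 points higher outside (4.73 among clonotypes of a single sequence). UPEC minus PBS was -5.32 points inside, and -6.94 among clonotypes of a single sequence (exact Mann-Whitney p = 0.00866). For the difference between compartments it was 15.3 points, and 17.8 among those clonotypes (exact Mann-Whitney p = 0.00433). By the same test it did not pass when weighted by reads (8.62 points, exact p = 0.0823) or with exactly 2 reads (10.6 points, exact p = 0.0519). A permutation test of the means gave the reported 11.5 points an exact p of 0.0498.

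Without the replicate block, the classes or compartments of a mouse were treated as unpaired. By the exact Mann-Whitney test, the all-mice share difference of -7.77 points then had a p of 0.00140 and the extravascular CDR3 gap of 1.03 nt a p of 0.0524. Called were 1 extravascular D segment and 0 intravascular J segments. V segment calls were 12 in place of 9 outside and 11 in place of 12 inside. The Ighm-only clonotype size, compared between compartments, had an exact Mann-Whitney p of 0.0115 in place of an exact signed-rank p of 0.0371.

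With at least 3 reads per sequence, the gaps were 1.02 nt of CDR3 and -0.0358 points of Ighj2 outside and -0.275 N nucleotides, -1.07 nt and -3.54 points of Ighj4 inside. The share of UPEC mice was then 1.03 points higher outside. UPEC minus PBS for the difference between compartments was 11.9 points (exact Mann-Whitney p = 0.0303). With exactly 2 reads, CDR3 gaps were 0.940 and -0.620 nt, 0 J segments inside, 4 comparisons within a class and 0 gaps were called, and the all-mice share difference was -10.3 points. Weighted by reads, Ighj1 and Ighj2 outside were at 0.00705 and -1.51 points and Ighj4 inside at -0.366, the share difference was -6.82 points in PBS mice (lower in 5 of 6, no longer passing) and 1.801 in UPEC mice, 0 intravascular J segments were called, and 1 D segment in each compartment. Ighd sequences without Ighm reads gave an extravascular CDR3 gap of 1.08 nt and 0 J segments inside, and leaving out clonotypes of both classes 0.885 nt and 1. V-D-J regions of at least 300 nt gave 0.109 nt of CDR3 and 1 D segment inside, and an all-mice share difference of -9.80 points. Limma called 14 extravascular V segments.

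With 1 mouse left out, the extravascular CDR3 gap ran from 0.685 to 1.40 nt and lost its unadjusted call in 9 of 10 cases, the intravascular N gap from -0.00920 to 0.180, intravascular D calls from 0 to 1 (1 without PBS mouse 4), and the 7 gaps from 0 to 7. The share difference ran from -9.98 to -6.48 points in all mice, from -14.9 to -11.5 in PBS mice, where 5 mice cannot pass, and from -5.46 to 1.19 in UPEC mice, above 0 without mouse 2 or 5. UPEC minus PBS ran from 7.53 (without UPEC mouse 1) to 14.2 points for the difference, from 3.095 to 9.79 outside and from -5.07 to -2.11 inside. The intravascular clonotype size gap ran from -11.8 to -3.02 sequences. Ighj2 inside ran from -0.585 (without PBS mouse 6) to 3.69 points, Ighj4 inside from -1.33 (without UPEC mouse 4, and -0.572 without UPEC mouse 1) to 2.04, and Ighj3 outside from -3.22 to 0.847 (without UPEC mouse 2).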
